A study of Mus musculus with 9 samples.

Results

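The genes described here are the core machinery of autophagy together with the lysosomal proton pump, measured as RNA in the ventral hippocampus of mice. Members are all symbols that start with Atg and a digit, with Map1lc3, Gabarap, Atp6v0 or Atp6v1, plus Sqstm1, Lyst, Becn1, Ulk1, Ulk2, Tfeb, Lamp1 and Lamp2, with a mean of at least 1 CPM (counts scaled to the total of a library) over the 9 libraries. Of 40213 symbols, 55 matched by name and 48 reached the minimum. The rule itself uses no contrast between groups, but it was set with earlier results of these data known.

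The 9 libraries came from separate male wild-type C57BL/6J mice, 8 weeks old when housed, with 3 mice in each of 3 groups. SUS_LE mice were stress-susceptible and had low-intensity treadmill exercise over 2 weeks. SUS mice were stress-susceptible without exercise. Both susceptible groups had restraint stress for 2 hours a day over 14 days, per the labels. SED mice were sedentary controls with neither restraint nor exercise. The sources used here give neither the score of susceptibility nor the time between the last session and tissue collection. The tissue was sequenced in bulk, so fewer cells of a type and less RNA per cell cannot be told apart in any difference below.

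In autophagy a membrane sac closes around cytoplasm and delivers it to the lysosome, where acid hydrolases break it down. The ULK and Beclin complexes start the sac, ATG2 and ATG9 proteins supply its membrane, and a ubiquitin-like conjugation system fixes proteins of the ATG8 family (LC3 and GABARAP proteins) to it. The vacuolar proton pump acidifies the lysosome: its membrane sector V0 carries the protons and its cytosolic sector V1 burns ATP. In neurons the same pump also acidifies synaptic vesicles, which load transmitter with the proton gradient. TFEB, a transcription factor of lysosomal genes, binds a motif with CACGTG at its core.

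Of the 48 members, 38 have an entry in the RefSeq promoter table (build GRCm38.p6). A promoter here is 250 bases before to 50 bases after the start of the gene. The palindrome CACGTG was found for 9 of the 38 members (23.7%), against 8.09% of 27025 symbols in the table. A symbol with several starts was counted if any of its promoters held the motif. The 27025 symbols were not limited to genes expressed in this tissue, and the share among expressed genes was not taken. Those 9 are Atg14, Atg3, Atg5, Atg7, Atp6v0b, Atp6v0d1, Atp6v0e, Atp6v1a and Lamp1. Among wider forms, which overlap CACGTG, TCACGTGA was found for 4 of the 38 members (10.5%, against 1.12%). GTCACGTG, searched on both strands, was found for 6 (15.8%, against 2.55%). The 150 bases before the start are shown for 4 genes that hold the motif, 2 of them pump subunits, and for Lyst, the member with the smallest p of the study's comparisons. Each reads 5′ to 3′ on the gene's own strand, and capitals mark CACGTG.
Lamp1, plus strand, chr8:13159011-13159160: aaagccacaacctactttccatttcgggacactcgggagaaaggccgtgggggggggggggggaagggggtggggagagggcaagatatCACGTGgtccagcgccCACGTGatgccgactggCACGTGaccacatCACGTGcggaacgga
Atp6v0b, minus strand, chr4:117887330-117887479: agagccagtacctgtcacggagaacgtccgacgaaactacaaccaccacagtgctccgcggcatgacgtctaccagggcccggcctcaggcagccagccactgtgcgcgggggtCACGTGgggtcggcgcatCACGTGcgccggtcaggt
Atg3, plus strand, chr16:45158679-45158828: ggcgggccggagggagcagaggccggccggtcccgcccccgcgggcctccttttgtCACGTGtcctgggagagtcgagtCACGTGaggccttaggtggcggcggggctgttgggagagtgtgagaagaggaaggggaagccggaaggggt
Atp6v1a, minus strand, chr16:44139260-44139409: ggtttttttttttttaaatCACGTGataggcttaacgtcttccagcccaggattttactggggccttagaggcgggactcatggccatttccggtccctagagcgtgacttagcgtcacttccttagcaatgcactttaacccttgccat
Lyst, plus strand, chr13:13590259-13590408: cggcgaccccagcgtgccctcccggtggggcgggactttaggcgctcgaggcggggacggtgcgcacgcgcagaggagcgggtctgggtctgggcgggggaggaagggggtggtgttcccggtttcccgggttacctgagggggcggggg
Lamp1, a glycoprotein of the lysosomal membrane, held 4 copies, which begin at positions −61, −45, −28 and −15 from its start. Atp6v0b, a proteolipid of the V0 ring, held 2, at −36 and −18. Atg3, the enzyme that passes ATG8 proteins to lipid, held 2, at −94 and −71. Atp6v1a, the catalytic subunit of V1, held 1, at −131, and the Lyst promoter held none. The 9 members with the motif had a median log2 fold change of 0.05 in SUS against SED, and the 29 without it one of 0.07. The medians in SUS_LE against SUS were −0.05 with the motif and −0.03 without it.

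Library totals ran from 14172344 to 15582304 counts, and members held 0.553 to 0.594% of them. All 48 members passed the filter on low counts, the smallest member count in any library being 32. Of 7 sets of cell type markers, choroid plexus transcripts differed most between the libraries: Ttr, the thyroid hormone carrier of that epithelium, stood at 83.2, 1509 and 59.6 CPM in SUS_LE 1 to 3, at 27.4, 2659 and 6085 CPM in SUS 1 to 3, and at 4310, 3543 and 2935 CPM in SED 1 to 3. The summed level of 15 choroid plexus markers ran from 251 to 2321 CPM in SUS_LE, from 162 to 8724 CPM in SUS and from 4481 to 6503 CPM in SED. The 10 neuron markers together stood at 10539 to 11326 CPM in SUS_LE, 10131 to 11128 CPM in SUS and 10249 to 10642 CPM in SED, ranges that overlap. Taken singly, 8 of the 10 had a log2 fold change above 0 in SUS against SED (median 0.09), and DESeq2 called Rbfox3 (0.24) and Tubb3 (0.23) higher. In SUS_LE against SUS 7 of 10 were above 0 (median 0.06) and Tubb3 was −0.23, a DESeq2 call too. Oligodendrocyte markers summed to 2659 to 3281 CPM in SUS_LE, 2590 to 2960 CPM in SUS and 3076 to 3283 CPM in SED, so SUS lay below SED. All 10 had a fold change below 0 in SUS against SED (median −0.19, 3 called by DESeq2), and 9 of 10 one above 0 in SUS_LE against SUS (median 0.12, 2 called). Astrocyte sums were 5659 to 5902 CPM in SUS_LE, 5176 to 5366 CPM in SUS and 5579 to 5856 CPM in SED, so SUS lay lowest. In SUS against SED 5 of 10 astrocyte markers were above 0 (median −0.02) and DESeq2 called 3 lower. In SUS_LE against SUS 7 of 10 were above 0 (median 0.08, 4 called higher). Endothelial sums were 350 to 359, 286 to 317 and 320 to 333 CPM in the same order of groups, so SUS again lay lowest. There 2 of 10 markers were above 0 in SUS against SED (median −0.09) and 9 of 10 in SUS_LE against SUS (median 0.25, 1 called). Microglia sums were 239 to 271 CPM in SUS_LE, 236 to 269 CPM in SUS and 239 to 251 CPM in SED. Of 10 microglia markers 8 were above 0 in SUS against SED (median 0.10). After removal of the GC and length trends described below, 5 were above 0 there (median 0.03). Meningeal fibroblast sums were 297 to 384 CPM in SUS_LE, 285 to 629 CPM in SUS and 425 to 483 CPM in SED. No marker was at 0 in all 9 libraries. The part of these cell types in the members' differences was not tested. Some values below come from a fit with a choroid plexus score as covariate, or without the 3 libraries lowest in Ttr. In SUS_LE against SED that score goes with group, as all 15 markers were lower in every SUS_LE than in every SED mouse. The fit without the 3 libraries (SUS_LE 1, SUS_LE 3 and SUS 1) keeps 1 SUS_LE library.

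Member levels are given as CPM after TMM scaling, which adjusts library totals for composition. They spanned from 2.97 CPM for Atg9b to 560 CPM for Atp6v0c, with a median of 62.6 CPM. Just inside the minimum lay Atg9b (2.97 CPM) and Tfeb (4.44 CPM), and just outside it Atp6v1c2 (0.730 CPM) and Atp6v0a4 (0.220 CPM). Of the 7 matched symbols below the minimum, 6 are pump subunits known from kidney, osteoclasts or testis, and Atp6v1fnb is named for lying beside Atp6v1f. Atp6v1e2, Atp6v0d2 and Atp6v1g3 had 2 counts each over all 9 libraries, Atp6v1fnb 1, Atp6v1b1 24, Atp6v0a4 29 and Atp6v1c2 96. Only Atp6v1c2 of these passed the filter on low counts.

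For subunits with paired isoforms, most of the proton pump RNA came from one of the pair. Levels were compared between genes as CPM per kilobase of the longest coding transcript, which may not be the one expressed. Atp6v0c, the main proteolipid of the V0 ring, stood highest at 474 ± 28.7 CPM per kilobase (SD, n = 9 libraries), and Atp6v1g2, the brain form of the G subunit, at 340 ± 13.6. Atp6v1g2 exceeded Atp6v1g1, the widely expressed form, by a ratio of 8.88 ± 0.592. For the a subunit, through which protons pass, Atp6v0a1 exceeded Atp6v0a2 by a ratio of 11.5 ± 1.32. For the small e subunit, Atp6v0e2 exceeded Atp6v0e by a ratio of 23.8 ± 6.59. Each of these ratios was above 1 in all 9 libraries. Among ATG8 genes Gabarapl1 was highest per kilobase, 2.62 ± 0.120 times Gabarap and 2.91 ± 0.190 times Gabarapl2, and Map1lc3b was 1.42 ± 0.190 times Map1lc3a. Atg9a, the ATG9 scramblase found in most tissues, was 21.8 ± 4.67 times Atg9b. Ulk2 and Ulk1, kinases that start autophagy, were near each other, at a ratio of 1.08 ± 0.0427, and so were Atg2b and Atg2a, lipid transfer proteins, at 1.16 ± 0.0851.

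**Figure D1:**
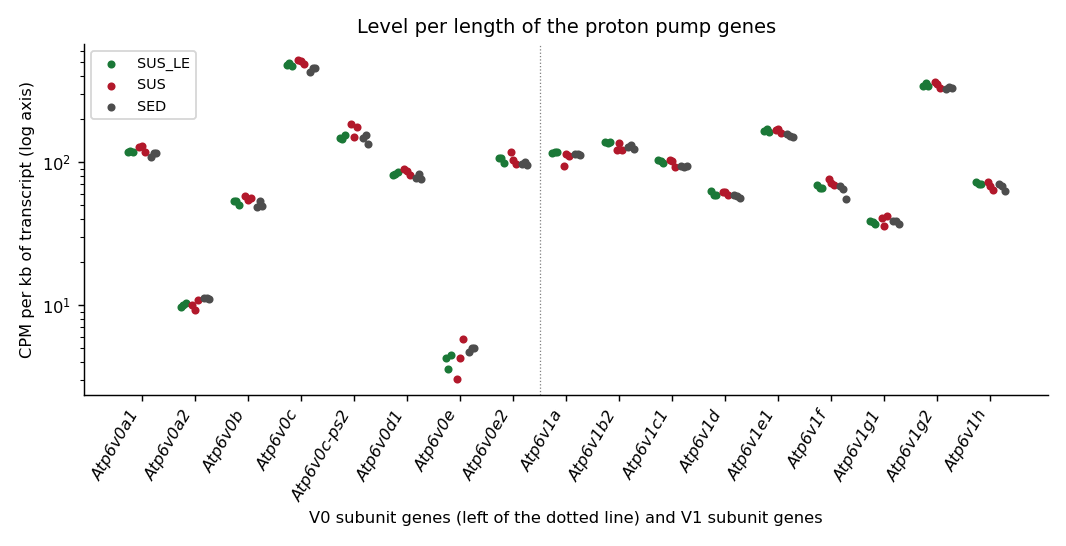
Level of each proton pump gene (TMM-scaled CPM per kilobase of transcript, log axis) in each mouse, with V0 genes left and V1 genes right of the dotted line and groups in the order SUS_LE, SUS and SED. Atp6v0c lies highest, with a mean of 474 CPM per kilobase, and Atp6v0e lowest, with a mean of 4.49.

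No member passed an adjusted p of 0.05 in edgeR in any of the 3 comparisons. Over all 16106 tested genes the same share was 0%. The values below therefore describe levels and directions. Fold changes are log2 values with their standard errors (SE). In SUS against SED the fold change was above 0 in 34 of the 48 members, where 49.9% of all tested genes had one above 0. It was above 0 in 15 of the 48 in SUS_LE against SUS, against 50.3% of all genes. In SUS_LE against SED it was above 0 in 33, against 52.9% of all genes. Over the 23 alternatives, scalings included, the counts above 0 ran from 32 to 36 in SUS against SED and from 11 to 21 in SUS_LE against SUS. The first 2 comparisons share the SUS libraries, so a high or low SUS value enters both with opposite signs. The median over members was 0.06 in SUS against SED (all genes −0.00), −0.03 in SUS_LE against SUS (all genes 0.00) and 0.04 in SUS_LE against SED (all genes 0.01). Unadjusted p under 0.05 was reached in SUS against SED by 10 members with higher and 2 with lower levels, against 6.83% and 6.26% of all genes. In SUS_LE against SUS it was reached by 2 higher and 3 lower, against 7.20% and 6.49%, and in SUS_LE against SED by 3 higher and 1 lower, against 2.79% and 3.86%. The 3 mice of a group did not overlap with those of the other in 9 higher and 1 lower members in SUS against SED (all genes 9.72% and 8.56%). The same held for 2 higher and 5 lower members in SUS_LE against SUS (8.61% and 8.38%), and for 13 higher and 4 lower in SUS_LE against SED (7.54% and 8.64%). DESeq2, as an alternative, called 2 of 33 members with an adjusted p in SUS against SED (3.35% of all), 2 of 36 in SUS_LE against SUS (3.28%) and 0 in SUS_LE against SED (0.0994%). Without its independent filtering it called 0 members in SUS against SED (0.329%) and 2 in SUS_LE against SUS (0.453%). limma voom called 0 members in each. The F test over the 3 groups had 8 members at an unadjusted p under 0.05, against 13.5% of all genes, and 0 after adjustment.

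**Figure D2:**
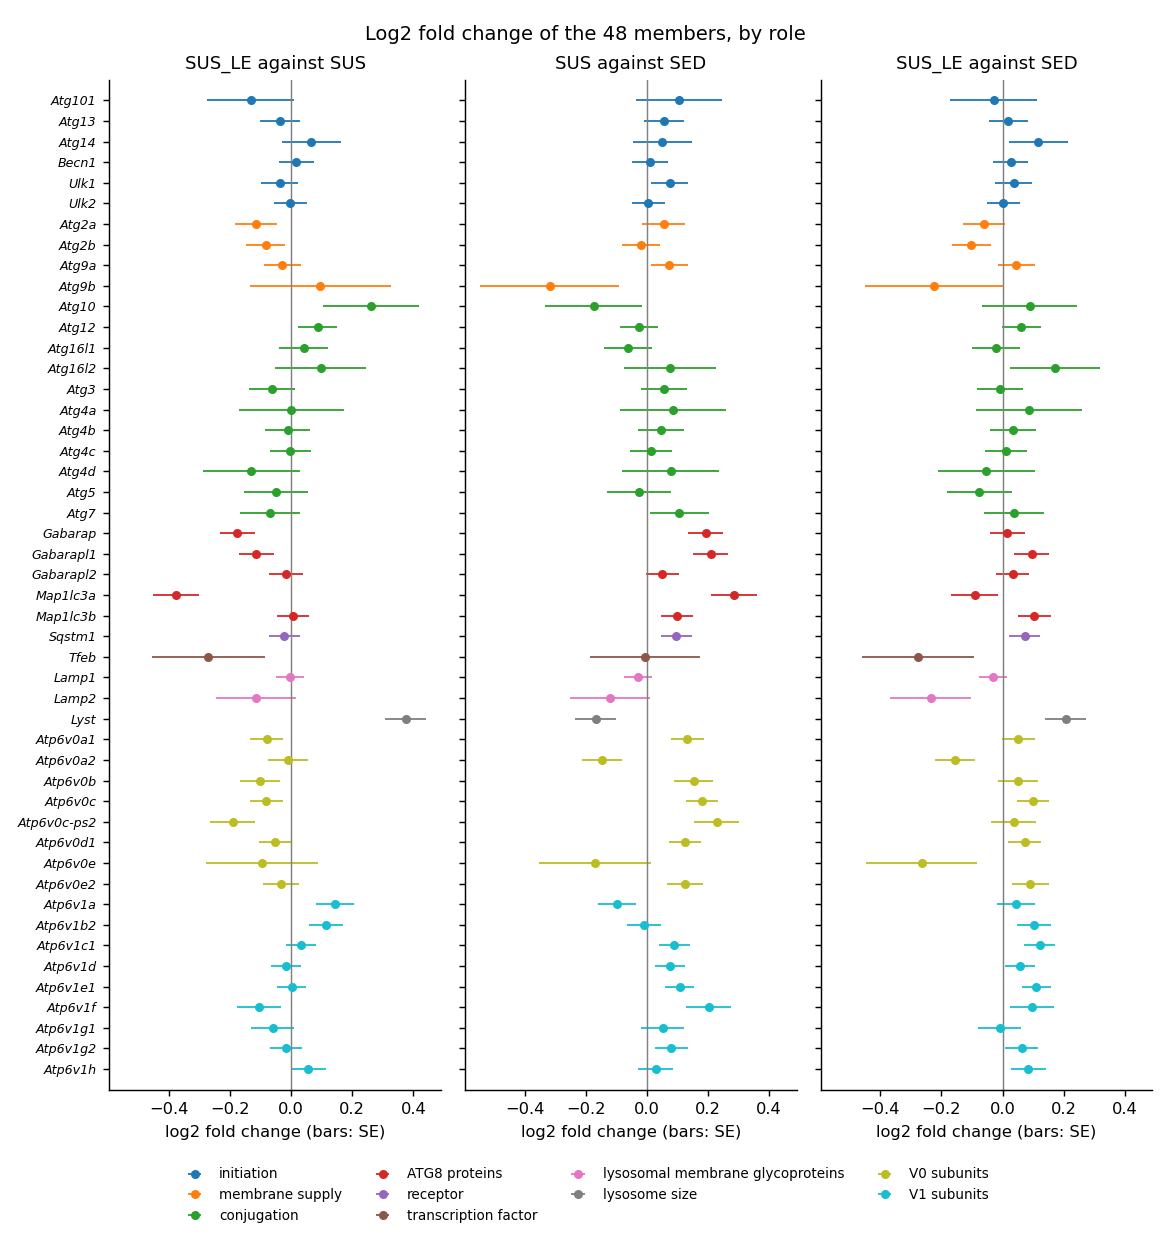
Log2 fold change of all 48 members by role, with bars for the standard error of the edgeR fit, for SUS_LE against SUS, SUS against SED, and the exercised against the sedentary mice. The ATG8 genes lie to the right of 0 in SUS against SED, from 0.05 for Gabarapl2 to 0.29 for Map1lc3a.

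The 5 ATG8 genes had higher mean levels in SUS than in SED mice. Their median fold change was 0.19 in SUS against SED and 5 of 5 were above 0, under each of the 23 alternatives too. In SUS_LE against SUS the median was −0.11, with 1 of 5 above 0 (0 to 1 under the alternatives). Leaving out SUS 3 gave −0.18 there, and leaving out SUS 1 −0.05. Leaving out SUS_LE 1, SUS_LE 3 and SUS 1, which had the least Ttr, gave −0.04, a fit with 1 SUS_LE library. In SUS_LE against SED it was 0.03, with 4 of 5 above 0, and the alternatives gave 2 to 4 of 5 and medians of −0.00 to 0.06. In SUS against SED 8 of 10 neuron markers were above 0 as well and all 10 oligodendrocyte markers below 0. Of 10 astrocyte markers 5 were below 0 there, 3 of them called by DESeq2, and of 10 endothelial markers 8 were below 0. The part of those cell types was not tested. Map1lc3a, an LC3 protein, stood at 34.36, 34.75 and 35.47 CPM in SUS_LE mice, at 47.98, 42.47 and 45.37 CPM in SUS mice and at 38.55, 39.53 and 33.32 CPM in SED mice. The 3 SUS mice were the highest of the 9, and SUS_LE values lay within the SED range. Its fold change was −0.38 (SE 0.08, edgeR adjusted p = 0.0922, DESeq2 adjusted p = 0.0105) in SUS_LE against SUS. It was 0.29 (SE 0.08, edgeR adjusted p = 0.155) in SUS against SED and −0.09 (SE 0.08, adjusted p = 0.865) in SUS_LE against SED.

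Gabarap, which gives its family the name, stood at 68.58, 70.42 and 71.41 CPM in SUS_LE mice, 83.65, 77.87 and 76.28 CPM in SUS mice and 67.9, 69.46 and 70.76 CPM in SED mice. Again all 3 SUS values exceeded the other 6. The fold changes were −0.18 (SE 0.06, edgeR adjusted p = 0.180) in SUS_LE against SUS and 0.19 (SE 0.06, adjusted p = 0.174) in SUS against SED. Gabarapl1, the most abundant ATG8 gene here, stood at 257.5, 256 and 252.9 CPM in SUS_LE mice, 300, 276.5 and 252.8 CPM in SUS mice and 241.8, 247.9 and 227.9 CPM in SED mice. SUS 3 lay level with the SUS_LE mice, and all SED mice lay below the others. Its fold change in SUS against SED was 0.21 (SE 0.06, edgeR adjusted p = 0.165, DESeq2 adjusted p = 0.0401), and without SUS 3 it was 0.27 with an edgeR adjusted p of 0.0436. In SUS_LE against SUS it was −0.11 (SE 0.06, edgeR adjusted p = 0.398), and −0.05 without SUS 1. Map1lc3b, the LC3 protein most used as a marker of autophagosomes, stood at 133.7, 128.6 and 136.5 CPM in SUS_LE mice, 136, 132.1 and 129.4 CPM in SUS mice and 116.8, 125.9 and 128.2 CPM in SED mice. Here SUS_LE and SUS overlapped, and both lay above SED. The fold change in SUS_LE against SED was 0.10 (SE 0.05, edgeR adjusted p = 0.766), 0.05 with a choroid plexus score as covariate and 0.06 without SED 1. Gabarapl2 ranged from 77.94 to 85.36 CPM over the 9 mice and its groups overlapped.

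**Figure D3:**
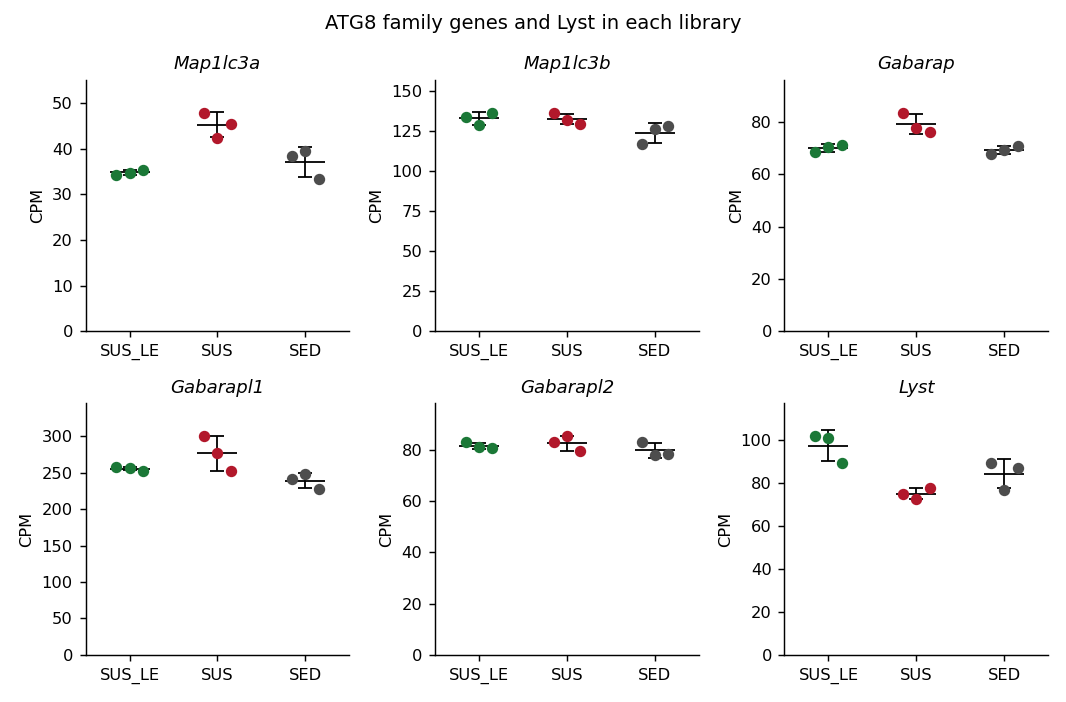
TMM-scaled CPM of the 5 ATG8 genes and of Lyst in each mouse, with the mean and SD of each group in the order SUS_LE, SUS and SED. Map1lc3a and Gabarap are highest in the 3 SUS mice, and Lyst is highest in SUS_LE 1 and 2.

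Lyst encodes a large protein of the BEACH family that controls the size of lysosomes and related granules, and its loss in mice gives the beige coat. It stood at 101.6, 101 and 89.04 CPM in SUS_LE mice, at 74.85, 72.66 and 77.51 CPM in SUS mice and at 89.31, 76.6 and 86.78 CPM in SED mice. Every SUS_LE mouse lay above every SUS mouse, while SED lay between and overlapped both. The fold change in SUS_LE against SUS was 0.37 (SE 0.07, 95% interval 0.23 to 0.51, edgeR adjusted p = 0.0728), and DESeq2 gave an adjusted p of 0.00167. It was −0.17 (SE 0.07, edgeR adjusted p = 0.292) in SUS against SED and 0.21 (SE 0.07, adjusted p = 0.566) in SUS_LE against SED. Over the 23 alternatives the SUS_LE against SUS value stayed between 0.32 and 0.43. With a choroid plexus score as covariate it was 0.39 (edgeR adjusted p = 0.0116), and without SUS_LE 1, SUS_LE 3 and SUS 1, the libraries lowest in Ttr, 0.43 (adjusted p = 0.0430), a fit in which SUS_LE has 1 library whose spread is taken from the other groups. For Map1lc3a the corresponding values were −0.40 (adjusted p = 0.0153) and −0.33 (adjusted p = 0.260), and its range over the alternatives was −0.42 to −0.25.

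The pump as a whole had 13 of 17 fold changes above 0 in SUS against SED, 5 of 17 in SUS_LE against SUS and 14 of 17 in SUS_LE against SED. These 17, the 8 of V0 and the 48 members include Atp6v0c-ps2, a processed copy of Atp6v0c and not a separate subunit. The fold change of that copy in SUS against SED was 0.23 (SE 0.07, edgeR adjusted p = 0.207). In the V0 sector 6 of 8 were above 0 in SUS against SED (median 0.13, 6 to 7 under the alternatives, with the same marker shifts as for the ATG8 genes), 0 of 8 in SUS_LE against SUS (median −0.08, 0 to 2 under the alternatives) and 6 of 8 in SUS_LE against SED (median 0.05). In the V1 sector it was 7 of 9 (median 0.07), 5 of 9 (median 0.00) and 8 of 9 (median 0.08) in the same order of comparisons. Over the alternatives the V1 median ran from 0.04 to 0.10, from −0.03 to 0.07 and from 0.03 to 0.11. Atp6v0c stood at 559.2, 576.8 and 550.3 CPM in SUS_LE mice, 610.5, 602.8 and 570.5 CPM in SUS mice and 504.6, 532.7 and 537.1 CPM in SED mice. All SED values lay below those of both susceptible groups. The fold change was 0.18 (SE 0.05, edgeR adjusted p = 0.173, DESeq2 adjusted p = 0.0187) in SUS against SED, −0.08 (SE 0.05, edgeR adjusted p = 0.518) in SUS_LE against SUS and 0.10 (SE 0.05, adjusted p = 0.770) in SUS_LE against SED. Atp6v0c-ps2, a processed copy of 465 bases, shares 464 of them with the Atp6v0c transcript (99.8%), with an identical run of up to 354 bases. Reads of the copy and of Atp6v0c may therefore be split between them by the counting, and its 67.69 to 71.34 CPM in SUS_LE, 69.82 to 86.05 CPM in SUS and 61.91 to 71.84 CPM in SED are uncertain. Its fold change in SUS_LE against SUS was −0.19 (SE 0.07, adjusted p = 0.267), and −0.13 without SUS 1. It was −0.06 after removal of the GC and length trends described below.

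Atp6v0a1, the main neuronal form of the a subunit, stood at 467.6, 479.5 and 469.9 CPM in SUS_LE mice, 509.3, 519.8 and 469.7 CPM in SUS mice and 436.7, 466 and 465.3 CPM in SED mice. SUS exceeded SED in every mouse, with a fold change of 0.13 (SE 0.05, edgeR adjusted p = 0.299). Atp6v0a2, the form of the Golgi and endosomes, had the opposite sign in SUS against SED, with 52.36, 53.4 and 55.14 CPM in SUS_LE mice, 53.41, 49.9 and 58.6 CPM in SUS mice and 60.24, 59.85 and 59.2 CPM in SED mice. All 3 SED mice exceeded the other 6. Its fold change was −0.15 (SE 0.07, edgeR adjusted p = 0.340) in SUS against SED, −0.10 there without SUS 2, and −0.16 (SE 0.07, adjusted p = 0.690) in SUS_LE against SED. Atp6v0b and Atp6v0d1, a subunit that joins the central stalk to the ring, had fold changes of 0.15 (SE 0.06) and 0.13 (SE 0.05) in SUS against SED, with edgeR adjusted p of 0.313 and 0.315.

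In V1, Atp6v1a stood at 493.3, 496.8 and 498.5 CPM in SUS_LE mice, 397.7, 484.6 and 466 CPM in SUS mice and 485.2, 480.6 and 477.4 CPM in SED mice. SUS 1 alone lay far below the other 8. The fold change in SUS_LE against SUS was 0.14 (SE 0.06, edgeR adjusted p = 0.323) and 0.06 without SUS 1, and with the choroid plexus score as covariate it was 0.21 (adjusted p = 0.0406). In SUS against SED it was −0.10 (SE 0.06, adjusted p = 0.524), −0.02 without SUS 1 and −0.04 with that covariate. After removal of the GC and length trends the values were 0.09 in SUS_LE against SUS and −0.03 in SUS against SED. Atp6v1b2, the brain form of the ATP-binding B subunit, stood at 387, 380.7 and 391 CPM in SUS_LE mice, 343, 386.1 and 341.7 CPM in SUS mice and 362, 370.3 and 345.9 CPM in SED mice. SUS 2 reached the SUS_LE level and the other SUS mice did not. Its fold change was 0.11 (SE 0.06, edgeR adjusted p = 0.376) in SUS_LE against SUS. Atp6v1c1, which clamps V1 to V0, stood at 213.4, 212.2 and 204.6 CPM in SUS_LE mice, 213.1, 211.5 and 191.8 CPM in SUS mice and 193.4, 191.7 and 193.9 CPM in SED mice. Every SUS_LE mouse exceeded every SED mouse, with a fold change of 0.12 (SE 0.05, edgeR adjusted p = 0.685), and 0.08 with the choroid plexus score as covariate. Atp6v1e1, part of the outer stalk, stood at 216.1, 222.8 and 214 CPM in SUS_LE mice, 219.3, 223.5 and 209.2 CPM in SUS mice and 207.1, 200.6 and 197.3 CPM in SED mice. Both susceptible groups exceeded SED, with fold changes of 0.11 (SE 0.05, adjusted p = 0.711) in SUS_LE against SED and 0.11 (SE 0.05, adjusted p = 0.340) in SUS against SED.

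The initiation genes had fold changes near 0. All 6 (Ulk1, Ulk2, Atg13, Atg101, Becn1 and Atg14) had a fold change above 0 in SUS against SED, with a median of 0.05, and SUS and SED mice overlapped in each. Across the alternatives 4 to 6 of the 6 were above 0. In SUS_LE against SUS 2 of 6 were above 0 (median −0.02) and in SUS_LE against SED 5 of 6 (median 0.02). The sign of both medians depended on the setting, with 1 to 5 of 6 above 0 (medians −0.05 to 0.07) and 2 to 6 of 6 (medians −0.01 to 0.06) over the alternatives. Becn1, the Beclin of the lipid kinase complex, averaged 76.7 ± 4.69 CPM in SUS_LE, 75.8 ± 0.405 CPM in SUS and 75.3 ± 1.90 CPM in SED mice (SD, n = 3 each). Its 95% interval in SUS_LE against SUS was −0.10 to 0.14. Ulk1 averaged 72.4 ± 2.77 CPM in SUS_LE, 74.3 ± 2.30 CPM in SUS and 70.6 ± 4.70 CPM in SED mice, with an interval of −0.17 to 0.09 in SUS_LE against SUS.

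Of the 11 conjugation genes 7 were above 0 in SUS against SED (median 0.05), 5 in SUS_LE against SUS (median −0.00) and 7 in SUS_LE against SED (median 0.03). The alternatives gave medians of 0.00 to 0.07, −0.04 to 0.05 and 0.01 to 0.06. Atg10, the enzyme that joins ATG12 to ATG5, stood at 10.68, 8.38 and 8.986 CPM in SUS_LE mice, 7.423, 9.438 and 6.511 CPM in SUS mice and 9.128, 9.812 and 7.434 CPM in SED mice. The groups overlapped, and its fold change in SUS_LE against SUS of 0.26 (SE 0.16, edgeR adjusted p = 0.479) moved to between 0.14 and 0.42 when single libraries were left out: it was 0.16 without SUS_LE 1, 0.42 without SUS 2 and 0.14 without SUS 3. Among the 4 genes of membrane supply 2 were above 0 in SUS against SED (median 0.02), 1 in SUS_LE against SUS (median −0.06) and 1 in SUS_LE against SED (median −0.08). Their medians over the alternatives ran from 0.00 to 0.03, from −0.14 to 0.02 and from −0.14 to −0.02. Atg2b stood at 55.92, 53.59 and 56.03 CPM in SUS_LE mice, 57.05, 58.78 and 59.49 CPM in SUS mice and 64.11, 56.56 and 57.04 CPM in SED mice. The SUS_LE mice were the lowest of the 9. Its fold change in SUS_LE against SED was −0.10 (SE 0.06, edgeR adjusted p = 0.815), −0.04 without SED 1 and −0.05 after removal of the GC and length trends. Atg9b, near the minimum level, had 2.87 ± 0.677 CPM in SUS_LE, 2.69 ± 0.416 CPM in SUS and 3.35 ± 0.411 CPM in SED mice. Its fold change in SUS against SED was −0.32 (SE 0.23, adjusted p = 0.585), and −0.20 without SUS 2.

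Sqstm1, the receptor p62 that carries ubiquitinated cargo and is itself degraded, stood at 230.1, 228.8 and 231.9 CPM in SUS_LE mice, 244.8, 235.4 and 221.6 CPM in SUS mice and 222.9, 224.8 and 209 CPM in SED mice. SUS_LE exceeded SED in every mouse, with a fold change of 0.07 (SE 0.05, edgeR adjusted p = 0.831). Tfeb stood at 4.654, 3.313 and 3.744 CPM in SUS_LE mice, 4.743, 4.65 and 4.729 CPM in SUS mice and 4.704, 4.065 and 5.407 CPM in SED mice. The groups overlapped in each comparison. Its fold change was −0.28 (SE 0.18, edgeR adjusted p = 0.830) in SUS_LE against SED, with values of −0.42 without SUS_LE 1 and −0.17 without SUS_LE 2 or without SED 3.

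Lamp1 ranged from 234.9 to 248.3 CPM over all 9 mice, and its 95% interval in SUS_LE against SUS was −0.10 to 0.09. Lamp2, the second main glycoprotein of the lysosomal membrane and a receptor of chaperone-mediated autophagy, stood at 73.51, 79.9 and 77.61 CPM in SUS_LE mice, 66.53, 85.36 and 98.28 CPM in SUS mice and 99.7, 88.31 and 84.07 CPM in SED mice. The SUS range was wide, and every SUS_LE mouse lay below every SED mouse. The fold change in SUS_LE against SED was −0.24 (SE 0.13, edgeR adjusted p = 0.807). With the choroid plexus score as covariate it was 0.05 (adjusted p = 0.957), so its sign turned. All 15 choroid plexus markers were lower in every SUS_LE than in every SED mouse. Group and choroid plexus content therefore cannot be told apart in that comparison. SUS 1, with the lowest Lamp2, had the lowest Ttr, and SUS 3 and SED 1, with the highest Lamp2, had the highest Ttr. Atp6v0e, the minor form of the e subunit, stood at 12.05, 10.13 and 12.59 CPM in SUS_LE mice, 8.592, 12.15 and 16.38 CPM in SUS mice and 13.27, 14.23 and 14.26 CPM in SED mice. Like Lamp2 it was lowest in SUS 1, while it was highest in SUS 3, and every SUS_LE mouse lay below every SED mouse. SUS_LE 2, with the most Ttr of the SUS_LE mice, had the least Atp6v0e of them. The Atp6v0e fold change in SUS_LE against SED was −0.26 (SE 0.18, edgeR adjusted p = 0.837).

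**Figure D4:**
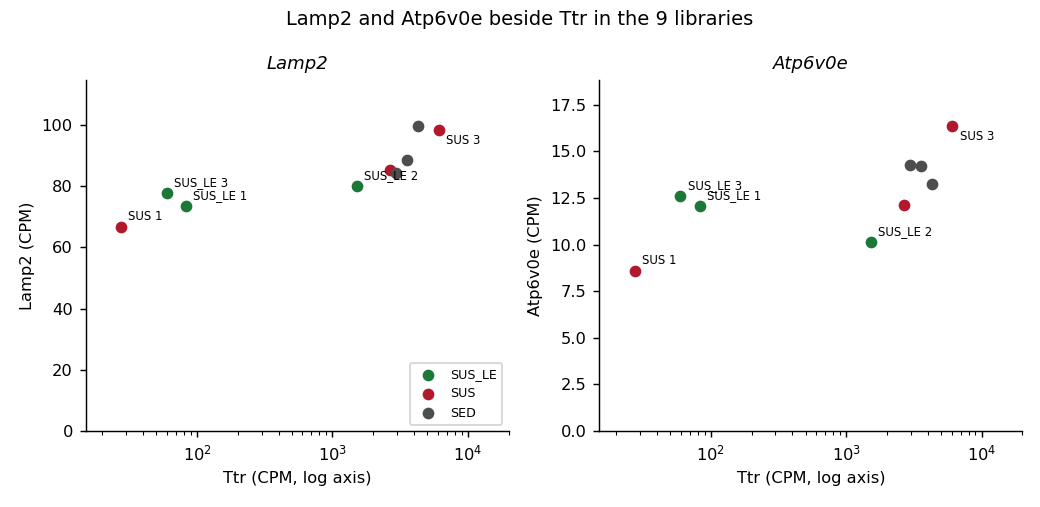
Level of Lamp2 and of Atp6v0e (TMM-scaled CPM) against Ttr (CPM, log axis) in the 9 mice, coloured by group, with 5 libraries named. Lamp2 runs between 66.53 CPM in SUS 1 and 99.7 CPM in SED 1, and Atp6v0e between 8.592 CPM in SUS 1 and 16.38 CPM in SUS 3.

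The fold changes of members moved with the GC content of their transcripts, as those of all genes did. Over the 48 members Spearman's rho between fold change and GC content was 0.47 in SUS against SED and −0.50 in SUS_LE against SUS, a description over genes that share the same libraries. Over 14697 genes with a GC value it was 0.37 and −0.40. In SUS_LE against SED it was −0.14 over the members and −0.03 over all genes. Map1lc3a has 63.1% GC, the second highest of the members after Tfeb (63.2%), and Lyst has the longest transcript, 13181 bases, with 45.6% GC. The members' median GC content was 50.8%, against 50% over all tested genes. The trends of each library with GC content and length were then removed. After that, rho with GC content over the members was −0.06 in SUS against SED, 0.12 in SUS_LE against SUS and −0.05 in SUS_LE against SED. With transcript length, rho over all genes was −0.24, 0.13 and −0.14 in those comparisons before removal. Over the members it was −0.53, 0.34 and −0.15 before removal and −0.32, 0.23 and 0.01 after it. A relation with length thus remained over the members in the first 2 comparisons. Lyst then had a fold change of 0.32 in SUS_LE against SUS (edgeR adjusted p = 0.238), −0.04 in SUS against SED and 0.28 in SUS_LE against SED. Map1lc3a had −0.25 in SUS_LE against SUS (adjusted p = 0.329) and 0.18 in SUS against SED. Atp6v0c had 0.09 in SUS against SED, and Gabarapl1 and Gabarap both had 0.17. The ATG8 genes kept 5 of 5 fold changes above 0 in SUS against SED, with a median of 0.17, and all members 36 of 48. The median over all tested genes was 0.02 in that fit, and their share above 0 was not taken. The V0 sector then had 2 of 8 above 0 in SUS_LE against SUS, with a median of −0.01. Unadjusted p under 0.05 was then reached by 5 members with higher levels and 0 with lower levels in SUS against SED (all genes 5.51% and 3.04%), by 1 higher and 3 lower in SUS_LE against SUS (4.63% and 3.79%), and by 2 higher and 1 lower in SUS_LE against SED (3.81% and 3.22%).

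**Figure D5:**
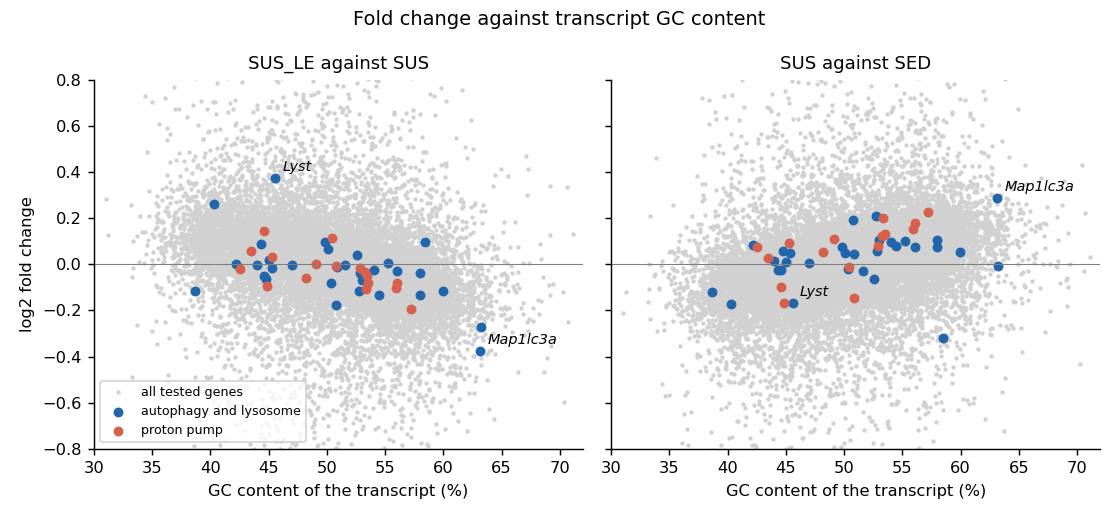
Log2 fold change against GC content of the transcript (percent) for the 48 members, in SUS_LE against SUS and SUS against SED. Grey points are the tested genes with a GC value. Genes beyond the range of either axis are not drawn. Map1lc3a sits at 63.1% GC with −0.38 and 0.29, and Lyst at 45.6% GC with 0.37 and −0.17.

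Genes of the same pathways outside the rule were taken as 10 lists, of which 179 genes were tested. None passed an adjusted p of 0.05 in edgeR. Unadjusted p under 0.05 was reached by 15 higher and 13 lower of the 179 in SUS against SED (all genes 6.83% and 6.26%), by 11 and 18 in SUS_LE against SUS (7.20% and 6.49%) and by 4 and 7 in SUS_LE against SED (2.79% and 3.86%). DESeq2 called 2 lower genes in SUS against SED, 3 higher and 1 lower in SUS_LE against SUS and 0 in SUS_LE against SED, where it called 3.35%, 3.28% and 0.0994% of all genes with an adjusted p. Fold changes above 0 numbered 96 of the 179 in SUS against SED (median 0.01), 88 in SUS_LE against SUS (median −0.00) and 97 in SUS_LE against SED (median 0.01). Values of the lists follow first for SUS against SED, then for SUS_LE against SUS, then for SUS_LE against SED, and each list is also given after removal of the GC and length trends. Proton pump accessory and assembly genes had 10, 8 and 12 of 15 above 0 (medians 0.08, 0.01 and 0.07), and 12, 6 and 13 with the trends removed (medians 0.08, −0.01 and 0.07). Among them Dmxl1, a subunit of the complex that reassembles the pump, averaged 81.7 ± 2.94 CPM in SUS_LE, 67.3 ± 6.38 CPM in SUS and 79.5 ± 5.18 CPM in SED mice. Its fold change was 0.28 (SE 0.07, edgeR adjusted p = 0.116, DESeq2 adjusted p = 0.0299) in SUS_LE against SUS and −0.24 (SE 0.07, edgeR adjusted p = 0.169) in SUS against SED. With the trends removed they were 0.17 and −0.07. Rogdi, which works in the same complex, had 106 ± 6.10 CPM in SUS_LE, 114 ± 9.70 CPM in SUS and 98.1 ± 3.55 CPM in SED mice. Its fold change in SUS against SED was 0.22 (SE 0.06, edgeR adjusted p = 0.173), and 0.11 with the trends removed.

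The 8 relatives of Lyst with a BEACH domain had 1, 6 and 2 fold changes above 0 in those comparisons, with medians of −0.13, 0.11 and −0.03. With the trends removed 2, 7 and 6 were above 0 (medians −0.05, 0.08 and 0.04), so that the sign in SUS_LE against SED turned. Nbea, neurobeachin of neuronal membrane traffic, averaged 440 ± 11.3 CPM in SUS_LE, 393 ± 6.68 CPM in SUS and 434 ± 9.12 CPM in SED mice. Its fold changes were 0.16 (SE 0.05, edgeR adjusted p = 0.166, DESeq2 adjusted p = 0.0212) in SUS_LE against SUS and −0.14 (SE 0.05, edgeR adjusted p = 0.225, DESeq2 adjusted p = 0.0444) in SUS against SED. After that removal they were 0.13 and −0.04. Lysosomal hydrolases had 27, 18 and 23 of 46 above 0 (medians 0.02, −0.03 and 0.00), and 25, 26 and 24 with the trends removed (medians 0.01, 0.01 and 0.01). Ctsd, the aspartic protease cathepsin D, had a fold change of −0.30 (SE 0.09, edgeR adjusted p = 0.193, DESeq2 adjusted p = 0.0270) in SUS_LE against SUS, and −0.21 with the trends removed. Other genes of the lysosomal membrane had 14, 10 and 12 of 26 above 0 (medians 0.01, −0.04 and −0.01), and 16, 11 and 14 with the trends removed (medians 0.04, −0.02 and 0.01). Tmem106b, a lysosomal membrane protein that binds the pump, had 0.20 (SE 0.05, edgeR adjusted p = 0.138, DESeq2 adjusted p = 0.0383) in SUS_LE against SUS, and 0.09 with the trends removed.

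Values of the remaining lists follow in the same order of comparisons, and several of their counts and signs turned when the trends were removed. Initiation genes outside the rule had 4, 4 and 4 of 9 above 0, with medians of −0.04, −0.02 and −0.00, against 6, 5 and 5 (0.01, 0.01 and 0.03) with the trends removed. Phagophore growth genes had 6, 6 and 4 of 10 above 0, with medians of 0.02, 0.02 and −0.01, against 7, 6 and 7 (0.06, 0.01 and 0.01). Autophagy receptors had 6, 7 and 6 of 15 above 0, with medians of −0.01, −0.00 and −0.03, against 12, 5 and 8 (0.05, −0.05 and 0.00) with the trends removed. Genes of fusion between autophagosome and lysosome had 10, 11 and 13 of 18 above 0, with medians of 0.02, 0.03 and 0.04, against 10, 7 and 15 (0.04, −0.02 and 0.06). Among them Vamp8 averaged 4.97 ± 0.261 CPM in SUS_LE, 8.17 ± 2.36 CPM in SUS and 8.48 ± 0.636 CPM in SED mice. Its fold change was −0.72 (SE 0.18, edgeR adjusted p = 0.116) in SUS_LE against SUS. In SUS_LE against SED it was −0.77 (SE 0.18, edgeR adjusted p = 0.334). With the trends removed these were −0.69 and −0.77. Genes of mTORC1 and amino acid sensing had 16, 16 and 19 of 28 above 0, with medians of 0.01, 0.04 and 0.05, against 17, 18 and 20 (0.03, 0.02 and 0.07). The 5 tested factors related to TFEB or acting on its targets had 2, 2 and 2 above 0, with medians of −0.17, −0.02 and −0.07, against 1, 2 and 2 (−0.10, −0.04 and −0.03) with the trends removed. Over all tested genes the medians with the trends removed were 0.02, 0.00 and 0.03.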

How the data were processed

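Per the labels' protocols, RNA of the ventral hippocampus was taken up in RNAiso Plus and turned into libraries by a CORALL RNA-seq V2 kit. The authors deposited counts per gene symbol as whole numbers that were not normalized. They used fastp, STAR and Salmon on GRCm39, per the submitters' processing notes. Annotation, strand setting and use of molecular identifiers are not given in the sources used here. In the file headers the SUS_LE libraries are numbered 2 to 4, but in the labels 1 to 3, which are used here. All libraries carry 1 batch number. Counts of same-group libraries differed by a chi-square of 2.77 to 15.5 per degree of freedom, so none was a duplicate. Intervals cover the spread between mice, and a count of 0 would allow up to 3 counts per library.

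Tools were DESeq2 1.42.0, limma 3.58.1 and edgeR 4.0.16, run in R 4.3.3. The edgeR expression filter kept 16106 genes holding 99.9% of counts. Libraries were scaled by TMM factors, and a robust quasi-likelihood model with group as its only term was fitted to all 9. Adjusted p values (Benjamini-Hochberg) are over all tested genes, except in DESeq2, whose independent filtering (at an alpha of 0.1) left some genes without one. The smallest p of an exact two-sided permutation test of 3 mice against 3 is 0.1. Members, gene lists, tests and alternatives were chosen with earlier results of these data known, so no list is independent support. Members named in full are, per comparison and direction, the 4 of smallest p, and up to 2 per pathway list; others were named as isoforms of them, for their role or after their values were seen. The pathway lists cover initiation, phagophore growth, receptors, fusion, mTORC1, factors related to TFEB, pump assembly, hydrolases, lysosomal membrane and BEACH relatives. GC content and length came from GENCODE M21 (GRCm38), found by symbol for 91.3% of the genes, and trends were removed as splines with 5 degrees of freedom. The choroid plexus score is the mean log2 CPM of its markers, with a prior count of 2. The scripts were tested on simulated data.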

Additional observations from a re-analysis of the deposited data

How the results depend on the processing

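The edgeR count of members past an adjusted p of 0.05, 0 in every comparison, was set against 23 alternatives. In SUS against SED it was 2 by DESeq2 (Atp6v0c and Gabarapl1), 3 with no filter on low counts (1.10% of all genes then called), and 0 to 1 when each of the 9 libraries was left out (1 without SUS 3, Gabarapl1, 0.453% of all). In SUS_LE against SUS it was 2 by DESeq2, with or without its independent filtering, 2 with no filter (1.59% of all), 3 with a choroid plexus score as covariate (Atp6v1a, Lyst and Map1lc3a; 2.71% of all) and 1 without the 3 libraries lowest in Ttr (Lyst; 0.120% of all). Leaving out single libraries gave 0 to 2 there: 1 without SUS_LE 3 (0.0490% of all) or SUS 1 (0.508%), both Lyst, and 2 without SUS 2 (Lyst and Map1lc3a, 1.12%). In SUS_LE against SED it was 0 in all 23. In the F test it was 3 with no filter (2.57% of all), 2 with the choroid plexus covariate (1.21%) and 0 to 1 without single libraries (1 without SUS 3, Lyst, 0.527%). With replicate number as a block it was 0 in each comparison and in the F test. Whether the numbers pair mice cannot be told from the counts, and headers and labels number the SUS_LE libraries differently. Deviations of same-numbered libraries had r between −0.12 and 0.18, and those of other pairs r between −0.28 and 0.17. Of 18 best matches 8 were to the own number. Of 25 fold changes of named members, Lamp2 in SUS_LE against SED alone changed sign, to 0.046 with the choroid plexus covariate. Further moves by more than 1.5 times were found without the 3 libraries lowest in Ttr, a fit with 1 SUS_LE library. In SUS_LE against SUS they were to 0.08 (Atg10), 0.07 (Atp6v1b2), 0.07 (Atp6v1a) and −0.04 (Gabarapl1). They were to −0.02 (Atp6v1a) in SUS against SED, and to 0.06 (Map1lc3b) and −0.51 (Tfeb) in SUS_LE against SED. The Atp6v1a value in SUS against SED was −0.16 without SUS 2, that of Gabarapl1 in SUS_LE against SUS −0.18 without SUS 3, and that of Map1lc3a in SUS_LE against SED −0.04 without SED 2, −0.16 without SED 3 and −0.14 with the covariate. Of 483 medians of roles under the alternatives 22 moved by 1 SD or more of the mice within groups. Beside the ranges already given, the V0 median ran from 0.08 to 0.16 in SUS against SED and from −0.11 to −0.01 in SUS_LE against SUS, and that of all members from −0.05 to −0.01 in SUS_LE against SUS. The causes were not tested. With 3 mice a group, members such as Tfeb and Atg9b, at under 5 CPM, had standard errors of 0.18 or more, against 0.05 for Atp6v0c.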
